A study of Homo sapiens with 3 samples.

Results

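MEIS1 peaks that lay between genes, more than 100 kb from the annotated transcription start site and outside annotated repeats, were examined where they were found with HOXB13 present and not after its knockout. They were selected on 4 properties of the deposited lists: an intergenic annotation, no repeat annotation, an absolute distance above 100 kb, and no overlap of 1 bp or more with a peak of the knockout line. There were 581 of them among the 5968 peaks of LV-MEIS1 cells. The deposited list is not equal in number to the peaks stated in the study, so counts and shares here refer to the deposited list. Starting from 2209 intergenic LV-MEIS1 peaks, 856 lay beyond 100 kb, 250 of these were annotated to a repeat, and of the remaining 606 the knockout list overlapped 25. Over the whole LV-MEIS1 list, 92.3% of peaks overlapped no knockout peak, so most LV-MEIS1 peaks of any kind met this condition. The 3 LV-MEIS1 peaks nearest to the limit on the inside were annotated to EVX1-AS at 100056 bp, FRMD3 at 100592 bp and CLDN23 at 101147 bp, with fold enrichments of 4.71, 11.5 and 6.90. The 3 nearest on the outside were annotated to LINC00583 and LINC01899, both at 99395 bp, and LOC286178 at 99278 bp, with fold enrichments of 11.2, 5.56 and 6.30.

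Both lines derive from CWR22Rv1, an established human prostate carcinoma line. LV-MEIS1 cells carry a lentiviral MEIS1 vector and their own HOXB13. HOXB13ko-LV-MEIS1 cells carry the same vector after CRISPR knockout of HOXB13, and the knockout line is a pool of several recombined clonal lines. MEIS1 was immunoprecipitated 3 times from LV-MEIS1 cells and 2 times from HOXB13ko-LV-MEIS1 cells, and the authors pooled the immunoprecipitations of a line before calling peaks. The headers of both lists name the same input from CWR-22Rv1 cells, although the study's methods speak of input for each cell line. Each line therefore has 1 list without replicate error, the peaks are the units of every test below, and the p-values say nothing about variation between cultures. The pools held 202428594 tags for LV-MEIS1 and 105763683 for HOXB13ko-LV-MEIS1, with 39102495 tags of input. The unequal depth of the pools moves with the line and cannot be told apart from the knockout in the absence of a peak. MEIS1 in both lines is exogenous, so these are sites bound at the level of expression the vector gives.

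MEIS1 is a homeodomain protein of the TALE class, which binds the core TGACA and acts as a cofactor of HOX and PBX proteins. HOXB13 is a posterior HOX factor of the prostate epithelium, and posterior HOX proteins favour words holding TTTAT, the reverse complement of ATAAA. Forkhead factors such as FOXA1 open chromatin at prostate enhancers, where the androgen receptor also binds. Enhancers can act on promoters over long distances, so the name of the nearest start site identifies a distant peak by its position and does not say which gene it acts on.

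The sequence under the strongest of these peaks is shown first, because it shows what a single distant summit looks like in hg38. Each run covers 50 bp on either side of the summit on the plus strand. Capitals mark TGACA or its complement TGTCA, and the forkhead words TGTTTAC and TGTTTGC or their complements.
PTPRD-AS2 peak at chr9:10969509-10969609, plus strand: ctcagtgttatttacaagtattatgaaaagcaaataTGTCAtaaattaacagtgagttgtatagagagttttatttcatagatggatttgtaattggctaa
EPHA7 peak at chr6:92895006-92895106, plus strand: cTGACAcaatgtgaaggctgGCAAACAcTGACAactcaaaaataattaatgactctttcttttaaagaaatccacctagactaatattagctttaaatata
TRPC4 peak at chr13:38002750-38002850, plus strand: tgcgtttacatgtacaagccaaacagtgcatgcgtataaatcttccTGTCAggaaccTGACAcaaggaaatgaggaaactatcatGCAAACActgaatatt
LINC00448 peak at chr13:62537335-62537435, plus strand: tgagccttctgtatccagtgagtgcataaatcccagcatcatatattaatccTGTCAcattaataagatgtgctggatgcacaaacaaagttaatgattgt
LINC00320 peak at chr21:20353481-20353581, plus strand: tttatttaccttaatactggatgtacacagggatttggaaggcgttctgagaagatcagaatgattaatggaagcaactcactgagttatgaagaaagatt

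The peak annotated to PTPRD-AS2, an antisense RNA at the receptor phosphatase gene PTPRD, had the highest fold enrichment at 15.2, and lay 356353 bp downstream of that start site. A single TGTCA stood to the left of its summit. The peak of EPHA7, an ephrin receptor, followed at 14.2 and held 2 copies of TGACA around a forkhead word. The peak of TRPC4, a cation channel gene, stood at 13.98 and also held both kinds of word. The peak of LINC00448 at 13.6 held TGTCA alone, and that of LINC00320 at 13.4 held neither kind of word. Others of the 10 strongest were annotated to LINC01790 at 13.3, also with neither, LINC01605 at 12.6, TUT7, a uridylyltransferase of RNA, at 12.5, and LOC730338 at 12.4. TGACA lay within 50 bp of 7 of the 10 summits, and 3 had neither word.

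Fold enrichment, the ratio of pileup to local background with 1 added to both, was similar at distant peaks and at other peaks of the same kind. It ranged from 2.67 to 15.2 around a median of 6.14 in the 581 peaks. The median was 6.28 at the 866 intergenic non-repeat peaks within 100 kb that also overlapped no knockout peak, and 6.16 at the 1664 such peaks in introns. Of the distant peaks, 49.6% lay above the median of the whole list, which was 6.17, against 52.1% of the intergenic peaks within 100 kb (odds ratio 0.904, 95% interval 0.729 to 1.12, p = 0.362, Fisher's exact test, two-sided as all such tests here) and 49.9% of the intronic peaks (odds ratio 0.988, 95% interval 0.814 to 1.198, p = 0.923, same test). Neither difference was detectable with these numbers of peaks. Median width was 291 bp, and 53.9% of distant peaks were wider than the list median of 279 bp, against 52.8% within 100 kb (odds ratio 1.05, 95% interval 0.842 to 1.30, p = 0.707, Fisher's exact test). Above the upper quartile of width, 346 bp, the share of distant peaks was larger by 5.12 points (Fisher's exact test, p = 0.0335), so the result depended on where the line was drawn.

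Distant summits lay in AT-rich sequence. The median G and C content within 50 bp of the summit was 36.6%, against 41.6% at intergenic peaks within 100 kb and 38.6% at intronic peaks. It was 36.1% in windows centred 500 bp to either side, so the composition was that of the surrounding sequence as well. The local background of these peaks, relative to the genome-wide level, had a median of 1.31 against 1.10 at intergenic peaks within 100 kb. Median pileup was 29.8, against 29.1 within 100 kb.

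**Figure D1:**
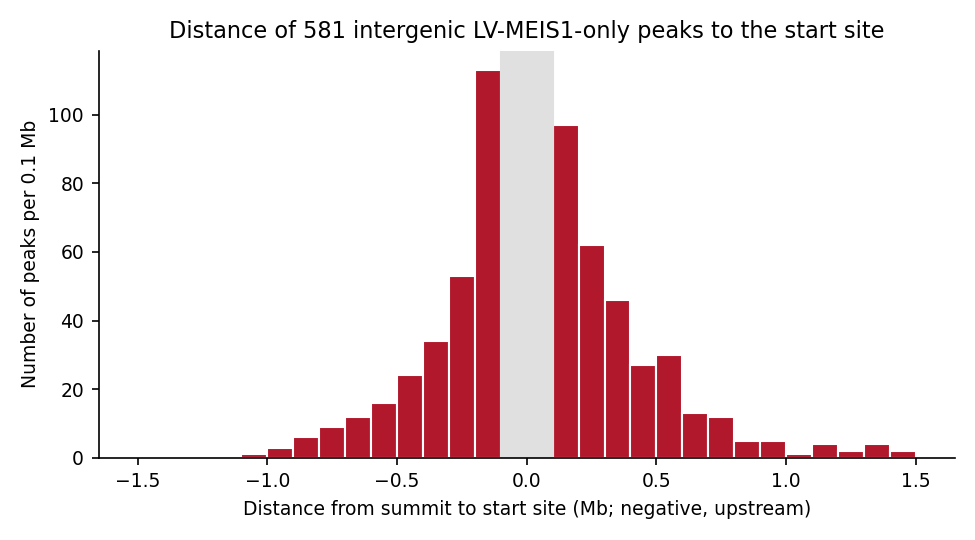
Histogram of the signed distance from summit to annotated start site for the 581 peaks, in bins of 0.1 Mb, with the excluded 100 kb on either side shaded grey. Bars fall away on both sides, and of the 14 peaks beyond 1 Mb, 13 lie downstream and 1 upstream.

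Distances ran from 100056 bp to 1432638 bp with a median of 268977 bp. There were 210 peaks between 100 and 200 kb, 246 between 200 and 500 kb, 111 between 500 kb and 1 Mb, and 14 beyond 1 Mb, as the histogram of signed distances shows. The 5 farthest were annotated to LINC01037 at 1432638 and 1354999 bp, LRFN5, a synaptic adhesion gene, at 1429006 bp, MIR4735 at 1396686 bp and GRIK2, a glutamate receptor gene, at 1343287 bp. Their fold enrichments were 4.33, 4.70, 9.59, 6.85 and 12.2, so both weak and strong peaks stood at the far end.

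Upstream of the annotated start site lay 46.6% of distant peaks and 69.3% of intergenic peaks within 100 kb. The sign belongs to the same distance whose size chose both classes, so these shares are a description. Noncoding RNA genes gave the name of 41.7% of distant peaks and 30.3% of those within 100 kb. The name comes from the same start site whose distance chose both classes, so these shares too are a description. This difference kept its direction with limits of 50 and 200 kb.

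The distant peaks spread over many intervals between protein-coding genes. They carried 409 gene names, of which 295 named 1 peak, 75 named 2, 28 named 3 and 11 named 4 or more. Another of these peaks lay within 10 kb for 71 of them and within 100 kb for 198. For 561 summits, the interval between the neighbouring protein-coding genes of GENCODE release 44 could be measured outside any such gene. Its median length was 1.39 Mb, against 0.165 Mb for intergenic peaks within 100 kb, a gap that the distance limit itself largely fixed, and 348 of the 561 (62.0%) lay in an interval longer than 1 Mb. The peaks occupied 311 such intervals. The interval from EPHA3 to PROS1 held 9, and 8 each lay between STIM2 and PCDH7, between ZPLD1 and ALCAM, and between LRFN5 and FSCB.

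The density of these peaks differed between chromosomes. Chromosome 5 held 65, or 0.358 per Mb, followed by chromosome 13 with 0.324, chromosome 4 with 0.315 and chromosome 3 with 0.303 per Mb. The gene-rich chromosome 19 had 2 (0.0341 per Mb). It carried 228 peaks of the list, or 3.89 per Mb, the highest density of all chromosomes. On chromosome 13, distant peaks made up 19.0% of all LV-MEIS1 peaks, and on chromosome 19 they made up 0.877%. An intergenic position beyond 100 kb leaves little room where genes are dense, so the rule largely fixed this contrast. These densities and shares are a description.

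A second annotation brought start sites nearer to many of these summits. In GENCODE release 44, 158 of the 581 summits (27.2%) lay in a gene, and for 135 of these every overlapping gene was a long noncoding RNA. Within 10 kb of a start site lay 112 (19.3%), and 216 (37.2%) met either condition. Beyond 100 kb of every start site of that release lay 136 (23.4%). With protein-coding genes alone, 18 lay in a gene or within 10 kb of a start site and 527 (90.7%) stayed beyond 100 kb. The distance that chose these peaks is thus a distance to the start sites the authors used.

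TGACA, the MEIS1 core, had the largest excess over flanks in percentage points of the 13 words, 39.2. It lay within 50 bp of 354 of 581 summits (60.9%, 95% Wilson interval 56.9 to 64.8), against a mean of 21.7% in the windows 500 bp away. It was near the summit and not in the flank far more often than the reverse (adjusted p = 3.03e-35, exact binomial test on discordant peaks). The longer word TGACAG stood at 26.3% of summits against 5.94% of flanks (adjusted p = 7.26e-19, same exact test). TGATTGACA, the joint word of PBX and MEIS proteins, was near 5 summits (0.861%) and could not be separated from the flanks (adjusted p = 0.491, same exact test). Words were searched on both strands, and p-values were adjusted over 13 words. TGACA occurs within TGACAG and TGATTGACA, and ATAAA within CAATAAA, so these are not separate counts.

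Among the words past the threshold, forkhead words had the highest ratio of summits to flanks, ahead of TGACAG at 4.43, TGATTTA at 3.68 and TGACA at 2.81. TGTTTAC or TGTTTGC lay near 107 summits (18.4%, 95% interval 15.5 to 21.8) against 3.61% of flanks, a ratio of 5.10 (adjusted p = 2.94e-15, exact binomial test). TGATTTA, a word of PBX with HOX proteins, lay near 81 (13.9%) against 3.79% of flanks (adjusted p = 1.01e-07, same exact test). ATAAA, the HOX-type word, lay near 391 (67.3%) against 46.7% of flanks (adjusted p = 7.26e-12, same exact test). AGAACA, a half-site of the androgen receptor, was near 84 (14.5%) against 10.1% of flanks. The core of the CTCF motif, searched as the word AGAGGGC, the word AGATGGC, the word AGGGGGC and the word AGGTGGC, was near 35 (6.02%) against 2.67% of flanks. AGAACA, the CTCF core and CAATAAA, a longer HOX word, each had an adjusted p of 0.05003 that was just above the threshold of 0.05 (same exact test). The second HOXB13 word TCGTAAA, the GATA word AGATAA, the AP-1 word TGANTCA and the ETS word GGAAGT did not pass, at shares of 1.205%, 12.9%, 6.71% and 4.65%.

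Distant peaks were then compared with the other classes, to see which words went with distance. TGACA lay near 60.9% of distant summits, 57.2% of intergenic summits within 100 kb and 56.6% of intronic summits. The differences of 3.77 and 4.32 percentage points did not pass (odds ratio 1.17, 95% interval 0.938 to 1.46, adjusted p = 0.409, and odds ratio 1.195, interval 0.981 to 1.46, adjusted p = 0.309, Fisher's exact tests adjusted over 26 comparisons). Forkhead words stood at 18.4%, 17.6% and 17.6% (odds ratio against peaks within 100 kb 1.06, 95% interval 0.798 to 1.41, adjusted p = 0.838, Fisher's exact test). Over all 5968 LV-MEIS1 peaks, TGACA lay near 56.1%, forkhead words near 13.97%, TGATTTA near 11.7% and ATAAA near 45.8%.

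**Figure D2:**
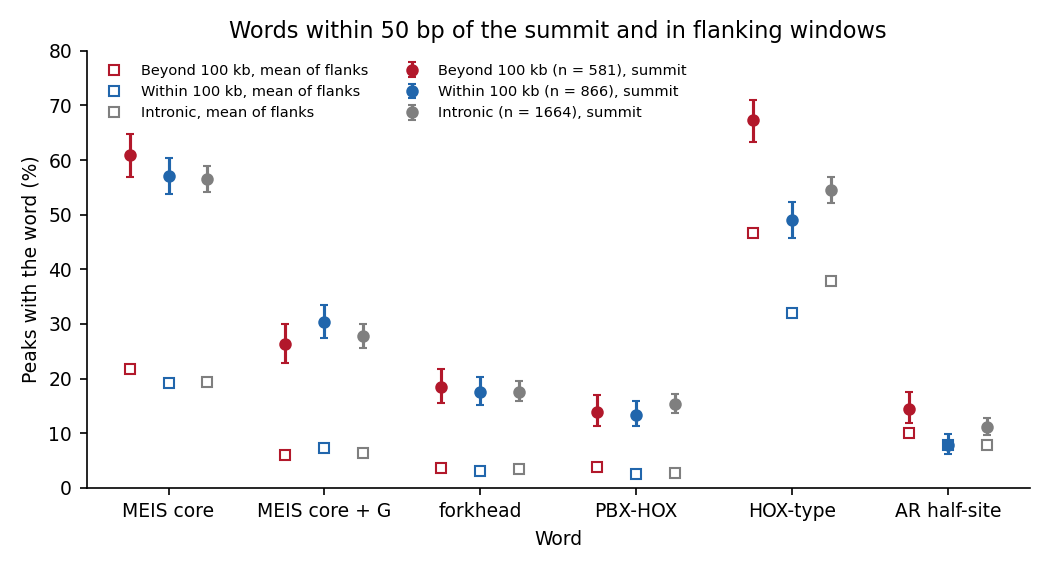
Share of peaks (percent) holding each of 6 words within 50 bp of the summit (filled circles, with 95% Wilson intervals) and the mean share in the flanking windows 500 bp away (open squares), for distant, nearer intergenic and intronic peaks. The HOX-type word ATAAA stands apart between classes at the summit (67.3%, 49.0% and 54.5%) and in the flanks (46.7%, 32.04% and 37.8%), whereas the MEIS core TGACA and the forkhead words have overlapping intervals.

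ATAAA and AGAACA differed between the classes, and the plot of word shares shows both with their flanks. ATAAA was near 67.3% of distant summits, 49.0% of those within 100 kb (odds ratio 2.15, 95% interval 1.71 to 2.69, adjusted p = 1.47e-10, Fisher's exact test) and 54.5% of intronic summits (odds ratio 1.72, interval 1.40 to 2.11, adjusted p = 9.70e-07, same test). Its flanks differed in the same direction: 47.0% and 46.5% of lower and upper flanks of distant peaks held it, against 32.3% and 31.8% for peaks within 100 kb. Among peaks whose flanks had 30 to 40% G and C, 316 distant and 278 nearer, the shares were 72.5% and 62.6%, and the difference no longer passed (adjusted p = 0.140, Fisher's exact test). AGAACA was near 14.5% of distant summits and 7.85% of those within 100 kb (odds ratio 1.98, 95% interval 1.39 to 2.83, adjusted p = 6.65e-04, Fisher's exact test), while the difference from the 11.1% of intronic summits did not pass (adjusted p = 0.236, same test). Its flank shares were 9.98% and 10.2% against 8.20% and 7.62%. The AGAACA difference was lost with a limit of 200 kb, a window of 25 bp, a q-value of at most 1e-10, or within the same band of G and C (adjusted p from 0.189 to 0.482, Fisher's exact test).

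**Figure D3:**
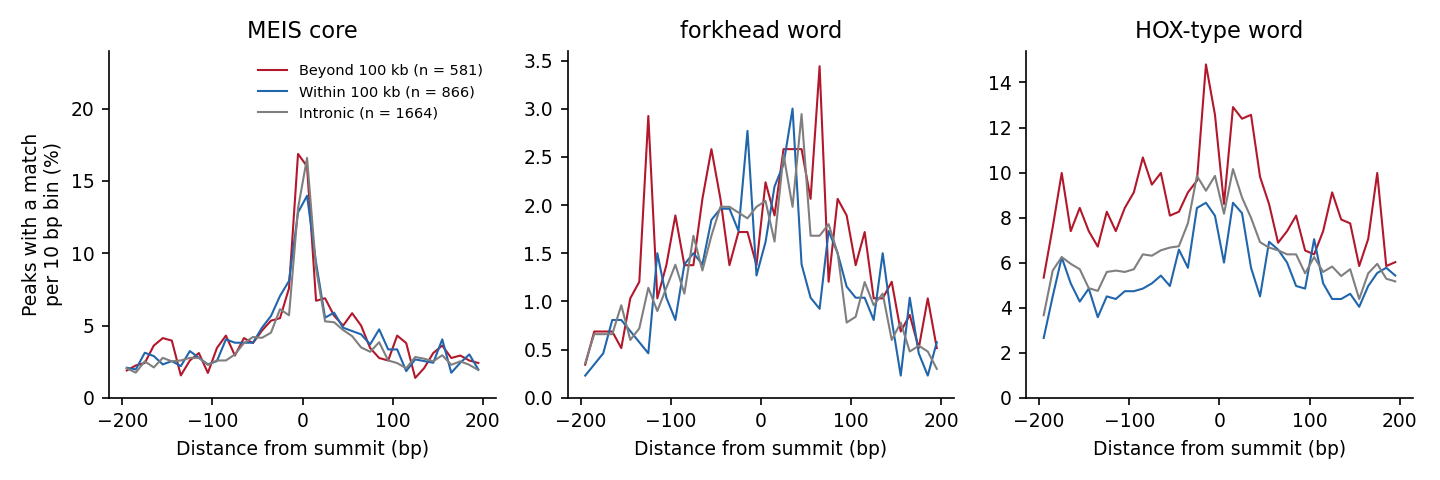
Share of peaks (percent) with a match in each 10 bp bin, by distance of the match from the summit in bp, for the MEIS core TGACA, the forkhead words and the HOX-type word ATAAA in the 3 classes; the vertical scales differ between panels. The MEIS core rises to 16.9% and 16.0% of distant peaks in the 2 bins beside the summit, whereas forkhead matches are spread broadly around it.

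By position, TGACA peaked at the summit itself. The bins centred 5 bp below and 5 bp above the summit held a match in 16.9% and 16.0% of distant peaks, against 12.8% and 13.97% of peaks within 100 kb and 13.1% and 16.6% of intronic peaks. Forkhead words had no such peak at the summit, where the same bins held 1.38% and 2.24% of distant peaks. ATAAA held 12.6% and 8.61% in these bins, against 8.08% and 6.00% of peaks within 100 kb and 9.86% and 8.17% of intronic peaks. The ATAAA difference was not confined to the summit. In the bins centred 195 bp below and above it, the shares were 5.34% and 6.02% of distant peaks, against 2.66% and 5.43% within 100 kb.

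TGACA and the other words combined as follows. Forkhead words lay near 16.9% of the 354 distant summits with TGACA and 20.7% of the 227 without. TGATTTA lay near 10.5% of those with TGACA and 19.4% of those without. Neither TGACA nor a forkhead word was found within 50 bp of 180 summits. Ranked by fold enrichment, TGACA lay near 57.3% of the 117 weakest and 69.0% of the 116 strongest. The median fold enrichment was 6.31 with TGACA and 6.00 without it.

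TTTAT 2 bases after TGACA, a close arrangement of the MEIS1 core and a HOX-type word, was rare, and no difference between distant and other peaks was detectable. Of 435 distant peaks with TGACA within 100 bp of the summit, 6 (1.38%) had TTTAT after 2 bases, against 43 of 3704 other LV-MEIS1 peaks (1.16%; odds ratio 1.19, 95% interval 0.412 to 2.83, Fisher's exact test, p = 0.639). With TTTAC also allowed there were 10 (2.30%) against 57 (1.54%; odds ratio 1.505, interval 0.680 to 3.003, Fisher's exact test, p = 0.228). For TTTAT alone, the 43 in other peaks stood above their counts at gaps of 3 to 30 bases, 3 to 18 with a median of 11. The 6 in distant peaks lay within their counts at those gaps, 0 to 7 with a median of 2. These counts carry no test. The 10 stretches are shown on the strand that reads TGACA, with both words in capitals, because they are the distant sites of this arrangement. The first 6 have TTTAT.
GRIN3A peak at chr9:102095474-102095509, minus strand: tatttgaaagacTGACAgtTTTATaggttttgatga
VLDLR peak at chr9:2466866-2466901, minus strand: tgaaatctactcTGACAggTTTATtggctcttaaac
THBS1 peak at chr15:39451493-39451528, plus strand: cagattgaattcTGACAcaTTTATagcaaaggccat
HTR1B peak at chr6:77310644-77310679, minus strand: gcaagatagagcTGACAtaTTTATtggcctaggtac
RANBP3L peak at chr5:36415046-36415081, minus strand: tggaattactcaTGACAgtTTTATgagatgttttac
CCT6P3 peak at chr7:65193864-65193899, plus strand: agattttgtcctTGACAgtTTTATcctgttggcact

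The other 4 have TTTAC.
CNTN5 peak at chr11:98616468-98616503, minus strand: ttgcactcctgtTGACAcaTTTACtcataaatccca
LINC01031 peak at chr1:193494644-193494679, plus strand: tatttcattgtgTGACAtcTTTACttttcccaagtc
LINC00708 peak at chr10:8407562-8407597, minus strand: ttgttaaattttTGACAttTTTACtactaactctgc
LINC01184 peak at chr5:127951156-127951191, minus strand: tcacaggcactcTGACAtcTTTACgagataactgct

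The peaks of these stretches ranged from 3.40 to 11.4 in fold enrichment. The strongest belonged to GRIN3A, a glutamate receptor gene, 356922 bp upstream, and to VLDLR, the very low density lipoprotein receptor, at 9.51 and 154884 bp upstream. THBS1, which encodes the matrix protein thrombospondin, had a peak of 6.70, and HTR1B, a serotonin receptor gene, one of 5.16. RANBP3L and CCT6P3 had peaks of 4.30 and 3.40. CNTN5, a contactin adhesion gene, and LINC01031 had peaks of 7.93 and 7.86, and LINC00708 and LINC01184 of 5.96 and 5.80.

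Genes named by 4 or more distant peaks accounted for 52 of the 581. EPHA3, a receptor for ephrins that guides axons, had 9, all between 386616 and 578494 bp downstream of its start site (chr3:89493955-89686199). Their fold enrichments were 3.70, 3.83, 5.16, 6.24, 7.48, 7.63, 7.65, 8.003 and 8.02, so 6 of 9 were above the median of distant peaks. TGACA lay near 4 of the 9 summits and a forkhead word near 1, and no knockout peak carried this gene name. Their local background was 1.35 to 2.76 times the genome level with a median of 2.07, above the 1.31 of all distant peaks, and its part in the number of peaks was not tested. The windows of the 2 strongest are shown, with TGACA on either strand and forkhead words in capitals.
EPHA3 peak at chr3:89496892-89496992, plus strand: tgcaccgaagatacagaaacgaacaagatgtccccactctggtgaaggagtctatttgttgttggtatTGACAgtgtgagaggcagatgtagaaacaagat
EPHA3 peak at chr3:89503874-89503974, plus strand: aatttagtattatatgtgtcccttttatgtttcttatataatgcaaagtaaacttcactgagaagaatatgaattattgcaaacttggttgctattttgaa

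The first of these windows holds TGACA to the right of its summit, and the other holds neither word in capitals. ROBO1, the receptor of Slit guidance cues, had 6 peaks, 4 upstream and 2 downstream, with fold enrichments from 4.23 to 6.79 and TGACA near 4. Their background was 1.86 to 2.69 times the genome level. ANXA1, which encodes the phospholipid-binding protein annexin A1, had 5 peaks of 5.66 to 8.16, all 312133 to 446144 bp downstream, with TGACA near 4.

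**Figure D4:**
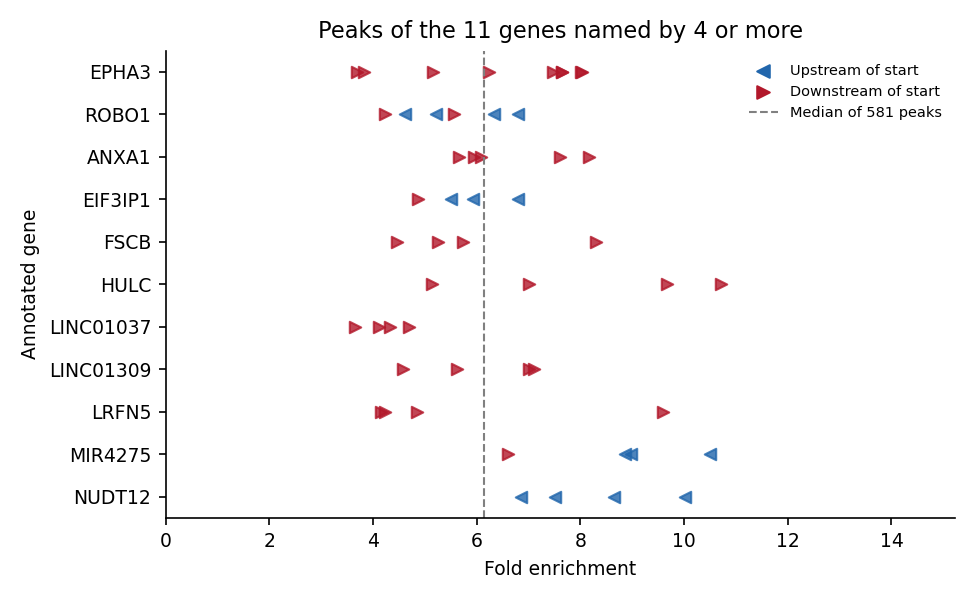
Fold enrichment of each distant peak of the 11 genes named by 4 or more, with left-pointing triangles for peaks upstream and right-pointing triangles for peaks downstream of the start site, and a dashed line at the median of 6.14 of all 581 peaks. All peaks of MIR4275 and NUDT12 lie to the right of the line, and all peaks of LINC01037 to the left.

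The other 8 genes had 4 peaks each, shown in the plot of fold enrichment by gene. Peaks of NUDT12, a nudix hydrolase gene, stood at 6.84, 7.50, 8.65 and 10.0 and lay 107051 to 146021 bp upstream. Those of MIR4275 stood at 6.61, 8.85, 8.98 and 10.5, all with TGACA near the summit. Those of HULC, a long noncoding RNA named for liver carcinoma, stood at 5.13, 7.01, 9.67 and 10.7, with TGACA near 3 and a forkhead word near the same 3. The peaks of these 3 genes had backgrounds no higher than 1.73 times the genome level. At LINC01037 the picture was the opposite: the 4 peaks stood at 3.65 to 4.70, none had TGACA or a forkhead word near the summit, and the background was 1.82 to 4.49 times the genome level. EIF3IP1, FSCB, LINC01309 and LRFN5 ranged from 4.15 to 9.59.

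Among the gene lists, neural adhesion and guidance genes gave their name to the most distant peaks. Here the nearest start site belonged to one of 101 such genes at 31 peaks of 12 genes (5.34% of distant peaks, against 0.577% of intergenic peaks within 100 kb and 1.39% of the whole list). EPHA3, ROBO1 and LRFN5 supplied 19 of the 31. The strongest was the EPHA7 peak at 14.2, and this gene had 2 others at 5.20 and 5.80 nearby. The strongest of LRFN5 was 9.59, of EPHA3 8.02 and of CNTN5 7.93. The median of the 31 was 5.21, below that of all distant peaks, and 12 lay above the list median. The shares of this list and of those below rest on the start site whose distance chose the classes. They are a description and carry no test.

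Cadherins and protocadherins, which hold cells together, named 8 peaks of 6 genes (1.38%, against 0.231% within 100 kb and 0.419% of the whole list). PCDH7 had 3, at 5.19, 5.94 and 9.05, all upstream of its start site. CDH2, which encodes N-cadherin, had 1 at 8.24 and 188956 bp downstream. CDH6 and CDH12 had peaks of 7.21 and 6.00.

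Developmental transcription factors outside the homeobox class named 11 peaks of 7 genes (1.89%, against 1.27% within 100 kb and 0.955% of the whole list). TBX3, a T-box factor, had the strongest at 11.6, 129195 bp upstream, and another at 3.84. KLF4, an epithelial Krüppel-like factor, had peaks of 6.21 and 9.14 upstream, and KLF5, its relative in basal epithelium, had 3 downstream at 3.35, 6.82 and 6.85. RUNX2 had a peak of 6.45. The TBX3 window is printed because it holds 2 copies of TGTCA and a forkhead word close together, in capitals.
TBX3 peak at chr12:114813309-114813409, plus strand: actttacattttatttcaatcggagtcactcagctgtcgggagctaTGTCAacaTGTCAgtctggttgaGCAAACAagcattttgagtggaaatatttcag

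Signalling and matrix genes were few. FST, which encodes the activin antagonist follistatin, had a peak of 8.72 at 141197 bp upstream. PTCH1, the Hedgehog receptor, had 2 neighbouring peaks at 5.11 and 5.96, and FGF10 had 1 at 4.72. SATB1 was the only homeobox gene named, with a peak of 5.85, and COL11A1 the only collagen gene, with a peak of 7.65. None of the 581 peaks was named by one of 20 androgen-responsive and prostate genes, which allows a share of up to 0.516%, against 9 intergenic peaks within 100 kb (1.04%) and 30 of the whole list (0.503%). The share of the whole list lies inside that limit, so a share lower than that of the list was not detectable. The share of peaks within 100 kb lies above the limit, a difference that was not tested. The 20 genes do not include the prostate RNAs SCHLAP1 and PCGEM1, which each named a distant peak. That of SCHLAP1 stood at 9.44 with TGACA near its summit, and that of PCGEM1 is given below.

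DCN, the gene of the small proteoglycan decorin, had 2 distant peaks, both upstream. They lay at chr12:91328047-91328284, 145041 bp from the start site, and at chr12:91422421-91422641, 239434 bp from it. Their fold enrichments of 4.58 and 4.72 stood at percentiles 12.7 and 15.1 of the LV-MEIS1 list, with q-values of 4.77e-09 and 2.45e-08. Both windows are shown, with TGACA and forkhead words in capitals, since DCN is the gene the study followed.
DCN peak at chr12:91328115-91328215, plus strand: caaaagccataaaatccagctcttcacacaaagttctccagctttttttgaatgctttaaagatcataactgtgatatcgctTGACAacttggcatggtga
DCN peak at chr12:91422508-91422608, plus strand: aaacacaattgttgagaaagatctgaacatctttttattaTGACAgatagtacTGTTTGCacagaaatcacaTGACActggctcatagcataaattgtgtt

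The nearer peak held 1 copy of TGACA to the right of its summit. The farther one held 2 copies and a forkhead word between them. No other proteoglycan gene of the list named a distant peak. The interval between the protein-coding genes DCN and BTG1 held 4 distant peaks, with fold enrichments from 4.58 to 10.2. Those annotated to LINC01619 stood at 10.2 and 9.31, percentiles 91.6 and 87.1 of the list, above both DCN peaks.

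**Figure D5:**
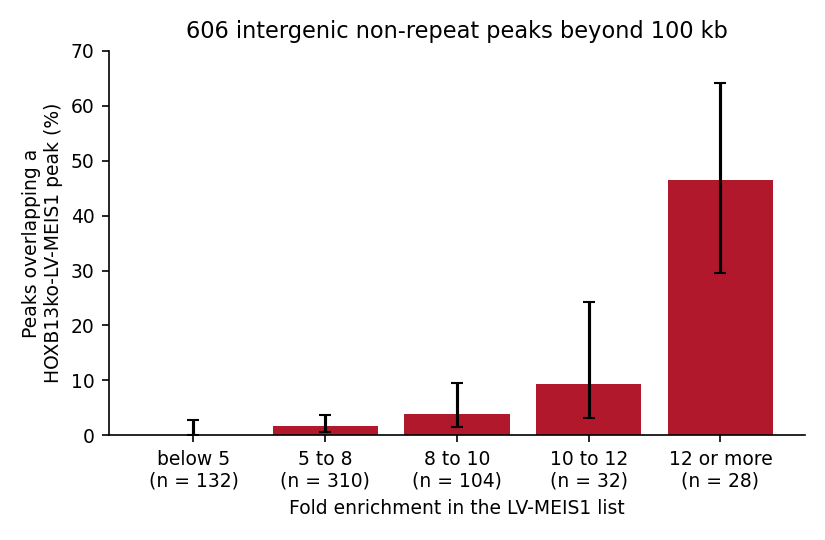
Share (percent) of the 606 intergenic non-repeat LV-MEIS1 peaks beyond 100 kb that overlap a HOXB13ko-LV-MEIS1 peak, by fold enrichment in the LV-MEIS1 list, with 95% Wilson intervals. None of 132 peaks below 5 overlapped and 13 of 28 at 12 or more did.

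The 25 distant peaks that did overlap the knockout list were stronger, as the plot of overlap by fold enrichment shows. Since overlap chose the 581 peaks, the values are a description. Overlap was found for 0 of 132 peaks with a fold enrichment below 5, 5 of 310 from 5 to 8 (1.61%), 4 of 104 from 8 to 10 (3.85%), 3 of 32 from 10 to 12 (9.38%) and 13 of 28 at 12 or more (46.4%, 95% Wilson interval 29.5 to 64.2). The strongest was that of LOC646736 at 17.7, and SIM1 and TFAP2B, both developmental factors, were among them at 12.2 and 10.9. Their median fold enrichment was 12.1, against 6.14 in the 581. Of the 606, 4.13% overlapped (95% interval 2.81 to 6.02), against 8.46% of intergenic peaks within 100 kb, 5.67% of intronic peaks and 11.1% of promoter peaks. The knockout list itself held 44 peaks of this class, 2.15% of its peaks, against 10.2% of the LV-MEIS1 list. Of the 581 peaks, chosen for lack of overlap, 1 had a knockout peak within 10 kb, at 335 bp, and 42 had one within 100 kb. These counts were not set against those of other peaks.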

How the data were processed

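MEIS1 ChIP-seq of 2 pooled lines was taken up from the deposited peak files and annotations of the authors, who named CASAVA 1.8, Trimmomatic 0.38, Picard 2.18.10, Bowtie2, MACS2 2.1.2 and HOMER 4.9.1 in their processing notes and used hg38. The authors extended reads of 50 bp to 200 bp, scaled each pool to the input and called peaks at a q-value of 1.00e-02. The deposited signal is the pileup at the summit. Fold enrichment as deposited is a ratio, pileup over local background, each plus 1. P-values and q-values were deposited on the −log10 scale. Other deposited values are the distances in bp from summit to start site given by HOMER.

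The local background was recovered from pileup and fold enrichment. Words were searched on both strands of hg38 in windows of 101 bp at the summit and 500 bp to either side, with the larger p of the 2 flanks kept. Adjustment was by Benjamini-Hochberg over 13 words or 26 comparisons between classes. Intervals cover counting error only. A shared base pair (1 bp) made peaks of the 2 lists overlap, and fold enrichment was not compared between lists. Among the 581 peaks, 2 lay off chromosomes 1 to 22, X and Y. GENCODE release 44 was the second annotation.

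The members, lists and tests were chosen with earlier results of these data known. Genes are named if they carry one of the 10 strongest peaks, 4 or more peaks, one of the 5 farthest or of the 3 nearest the limit on each side, one of the 4 leading genes of each list, the TGACA arrangement after 2 bases, or are DCN. Neighbours of the intervals between protein-coding genes, LOC646736, SIM1, TFAP2B, LINC01619, PCGEM1, SCHLAP1 and the genes of the directly joined words fall outside this rule. They were picked with their values in view. Gene lists were made from RefSeq names and cover neural adhesion and guidance, cadherins, homeobox and other developmental factors, developmental signalling, proteoglycans, collagens with laminins and integrins, and androgen-responsive and prostate genes. Alternatives were other distance limits, a stricter q-value, widened or stricter knockout peaks, repeats kept, other windows, words, quartiles and chromosomes, and protein-coding genes only. One of the 10 strongest peaks is not reported here. Scripts were tested on simulated data. The tools were scipy 1.17.1, pysam 0.24.0, pandas 2.3.3, matplotlib 3.10.9 and numpy 2.4.6 under Python 3.11.15.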

Additional observations from a re-analysis of the deposited data

How the results depend on the processing

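No paired analysis was possible because each line has 1 pooled list. Of 90 recomputed values for the comparisons, 72 kept their direction and side of the threshold or stayed within 1.5 times the reported count. TGACA and 4 other words stayed past the threshold against flanks under all 7 alternatives each, and 8 of the 12 words other than TGACA passed with a window of 100 bp, against 4. The excess of TGACA ran from 33.7 to 43.0 points. A limit of 200 kb left 371 peaks and a q-value of at most 1e-10 left 357. GENCODE placed 338 peaks in a gene or within 10 kb of a start site with a limit of 50 kb, 125 with 200 kb, 128 at the stricter q-value and 18 with protein-coding genes alone. Words other than TGACA that differed between classes numbered 5 with a limit of 50 kb and 7 with a window of 100 bp, against 3. With that window forkhead words differed by 6.25 points between distant and nearer peaks (adjusted p = 0.0451, Fisher's exact test). The width difference passed with limits of 50 kb (5.53 points, p = 0.0382, Fisher's exact test) and 200 kb (6.01 points, p = 0.0467) and above the upper quartile (5.12 points, p = 0.0335). Differences that never passed changed sign: TTTAT after 2 bases was -0.87 points with 200 kb and -0.28 at the stricter q-value, fold enrichment against intronic peaks was 0.25 points with 200 kb and 1.95 above the upper quartile, and against peaks within 100 kb 0.47 above that quartile. GGAAGT against flanks was 0.28 points at the stricter q-value. The share overlapping the knockout list was 6.54% at that q-value, where fewer weak peaks remain. Apart from the counts, where fewer or more peaks enter, the cause was not tested. Values within 30 to 40% G and C, and for the knockout share, were alternatives added after seeing the data. How far depth limits the weakest peaks was not measured.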

Other observations

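The following values were chosen after the data were seen and carry no test. TTTAT directly after TGACA, with no base between them, was found at 10 of 435 distant peaks with TGACA within 100 bp of the summit (2.30%) and at 37 of 3704 other LV-MEIS1 peaks (0.999%). The 37 include 5 intergenic peaks within 100 kb and 11 intronic peaks, all non-repeat and overlapping no knockout peak. The other peaks also include promoters and repeats, and distant summits lay in AT-rich sequence. The part of base composition in this difference was not tested. At gaps of 3 to 30 bases the count in distant peaks had a median of 2 and ran from 0 to 7. In other LV-MEIS1 peaks it had a median of 11 and ran from 3 to 18, so the joined word exceeded those gaps in both. The strongest of the 10 distant peaks was annotated to BCKDHB at a fold enrichment of 9.93, followed by KLF4 at 9.14, FST at 8.72, KLF5 at 6.85, TBX15 at 6.38, C3orf58 at 5.19, FAM124B at 5.03, LINC00882 at 4.83, LOC105374704 at 3.84 and CBLN2 at 3.18. The 10 stretches are shown on the strand that reads TGACA, with the joined word in capitals.
BCKDHB peak at chr6:80736388-80736421, plus strand: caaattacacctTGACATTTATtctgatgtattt
KLF4 peak at chr9:108131230-108131263, minus strand: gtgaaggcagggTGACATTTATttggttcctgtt
FST peak at chr5:53339210-53339243, minus strand: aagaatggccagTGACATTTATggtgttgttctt
KLF5 peak at chr13:73241827-73241860, plus strand: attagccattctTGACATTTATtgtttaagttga
TBX15 peak at chr1:118650220-118650253, minus strand: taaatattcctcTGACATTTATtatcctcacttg
C3orf58 peak at chr3:144331948-144331981, plus strand: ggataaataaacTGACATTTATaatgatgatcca
FAM124B peak at chr2:224249215-224249248, minus strand: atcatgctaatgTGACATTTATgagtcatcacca
LINC00882 peak at chr3:106610735-106610768, minus strand: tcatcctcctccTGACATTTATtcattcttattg
LOC105374704 peak at chr5:29750532-29750565, plus strand: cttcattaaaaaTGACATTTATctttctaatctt
CBLN2 peak at chr18:72240540-72240573, minus strand: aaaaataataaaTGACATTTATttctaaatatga

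Words of 6 letters, counted with their complements, were ranked by the excess of distant summits over flanks. TGACAG stood at 26.3% of summits, the shifted form CTGACA at 22.5%, the form TTGACA at 20.1% and the form TGACAT at 20.1%, with flanks from 5.25% to 6.02%. ATTTAT stood at 39.2%, the word GATTTA at 23.9% and the word TTTATG at 25.5%, with flanks of 20.1%, 9.04% and 10.8%. TGTTTG stood at 22.2% against 8.43%. TTGGCA, a half-site of nuclear factor I proteins and the 15th word by excess, stood at 16.4% of distant summits against 5.85% of flanks. It stood at 14.8% against 5.31% at intergenic peaks within 100 kb and at 14.1% against 5.59% at intronic peaks.

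Of the 44 knockout peaks that lay between genes, beyond 100 kb and outside repeats, 27 overlapped an LV-MEIS1 peak and 16 of these had TGACA within 50 bp of the summit. Of the 17 that overlapped none, 1 had it.

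PCGEM1, a long noncoding RNA of prostate, named 1 distant peak with a fold enrichment of 4.80, 523411 bp downstream of its start site, in the interval between TMEFF2 and SLC39A10 that held 7 distant peaks. TGACA and the forkhead words were not within 50 bp of its summit.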
